A study of Mus musculus with 12 samples.

Results

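Intracisternal A-particle (IAP) elements were followed through 16 of the 1217 repeat classes that were measured, namely every class whose name starts with IAP. Of these, 6 are internal regions (IAPEz-int, IAP-d-int, IAPEy-int, IAPEY3-int, IAPLTR3-int and IAPLTR4_I) and 10 are LTR subtypes (IAPLTR1_Mm, IAPLTR1a_Mm, IAPLTR2_Mm, IAPLTR2a, IAPLTR2b, IAPLTR3, IAPLTR4, IAPEY_LTR, IAPEY2_LTR and IAPEY3_LTR). The data are poly(A) RNA-seq profiles of 12 mouse embryonic stem cell (ESC) libraries, 3 in each of 4 groups. All 12 came from Tet2 KO ESCs that stably carried a PiggyBac rescue vector and were infected with a lentiviral shRNA against Setdb1, with puromycin selection before collection. The groups were WT TET2 in 2i (naïve), catalytic mutant TET2 (H1304Y, D1306A) in 2i, WT TET2 in serum with LIF (primed) and mutant TET2 in serum with LIF. The cells were grown on gelatin without feeders. No library with a control shRNA was used here. Every value thus comes from cells given the Setdb1 shRNA, and the response to that shRNA is not measured. The labels do not say how many clones each rescue line stands for, nor whether the 3 libraries of a group came from separate cultures, and the p-values therefore measure the spread between these libraries, which may be technical.

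IAPs are endogenous retroviruses of the mouse genome. A complete copy has 2 long terminal repeats (LTRs), which hold the promoter and the polyadenylation signal, around an internal region that encodes gag and pol, and recombination between the LTRs of 1 copy leaves a solo LTR. In ESCs, IAPs are known to be silenced by H3K9 trimethylation, which SETDB1 deposits after KAP1 brings it to the element, and by DNA methylation, which 2i medium lowers and which TET enzymes oxidise.

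The stretches that the study's own primers recognise show how LTR subtypes and the internal region differ in sequence. Primers were matched exactly to the mm9 genome (NCBIM37, annotation GENCODE vM1), the build that the authors used, and a product was counted where a forward and a reverse match faced each other within 400 bases. The assays for LTR1 and LTR2 shared their forward primer, which had 2923 exact matches. The LTR1 pair gave 1104 products of 79 to 85 bases, in 79 distinct sequences. The LTR2 pair gave 25 products of 178 to 355 bases, and all 25 sequences differed. The gag pair, within the internal region, gave 436 products, all 77 bases long, in 14 distinct sequences. The LTR3 primers had no exact match in this build. Of the LTR1 products, 238 (21.6%) overlapped an annotated gene, against 2 LTR2 products (8%) and 93 gag products (21.3%). No product lay on the Y chromosome as assembled in this build, and copies missing from the assembly would not be found.

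For LTR1 and gag, the sequence found most often in the genome is printed below, with 294 and 293 identical copies, and for LTR2 1 of the 25 products. The LTR1 copy shown lies at chr1:11877316-11877397 on the minus strand, in an intron of A830018L16Rik, which is on the plus strand. The LTR2 copy is at chr12:89854710-89854944 on the minus strand and the gag copy at chr1:5799512-5799588 on the minus strand, both outside annotated genes. Capitals mark the primer sites.
LTR1: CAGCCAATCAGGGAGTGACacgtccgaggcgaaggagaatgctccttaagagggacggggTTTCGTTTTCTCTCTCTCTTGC
LTR2: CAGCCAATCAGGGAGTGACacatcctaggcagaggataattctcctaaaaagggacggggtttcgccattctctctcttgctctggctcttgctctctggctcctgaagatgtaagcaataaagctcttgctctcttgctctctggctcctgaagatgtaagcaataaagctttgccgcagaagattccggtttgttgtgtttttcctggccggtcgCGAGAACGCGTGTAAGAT
gag: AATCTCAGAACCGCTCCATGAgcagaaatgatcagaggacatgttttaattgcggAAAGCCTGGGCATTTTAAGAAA
These copies hold 5, 9 and 2 CpG dinucleotides in 82, 235 and 77 bases. The median over all products was 4 for LTR1, 11 for LTR2 and 2 for gag, at median lengths of 82, 241 and 77 bases. The higher LTR2 count thus comes with a longer product and is not a higher density. Because many copies share identical stretches, a read from them cannot be placed at 1 copy, and the values below are sums over all copies of a class.

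The libraries held 3156928 to 13718028 reads in repeats, of which 37.7% to 88.1% were ribosomal RNA. The third library had the lowest ribosomal share of its group, at 37.7% (WT naïve), 68.8% (mutant naïve), 76.3% (WT primed) and 46.7% (mutant primed). The part of this share in the values was not tested. The values are variance-stabilised read counts on a log2 scale, where a difference of 1 is a doubling of the reads at high counts and more than a doubling at low counts. The median over all repeat classes was higher in the third library of each group (6.40 to 6.59 in the WT and 6.49 to 6.62 in the mutant rescue line) than in the other 8 libraries (5.83 to 6.13), and calls that change without those 4 libraries are given. Setdb1 had group means from 7.69 to 8.27 and was not called between media (adjusted p = 0.167 with WT and 0.201 with mutant TET2, limma). Tet2 transcripts, in which endogenous and vector reads are summed, were from lowest to highest 14.58, 14.81 and 15.09 in primed and 12.73, 13.09 and 14.001 in naïve cells with WT TET2, against 12.50, 13.20 and 13.27 in primed and 10.60, 10.81 and 11.95 in naïve cells with the mutant. Tet2 was thus lower in naïve cells, by 1.55 with WT (adjusted p = 0.00207, limma) and by 1.87 with mutant TET2 (adjusted p = 0.000515), and higher in the WT than in the mutant line, by 2.16 in naïve (adjusted p = 0.0154) and 1.84 in primed cells (adjusted p = 0.0297). Markers of ESC identity (7 of 8 genes in the table) summed to 3250 to 4283 CPM (counts scaled to a fixed total of gene reads) in the 12 libraries, primitive endoderm markers (6 genes) to 25.1 to 64.3, and fibroblast markers (6 genes, Col1a2, Col3a1 and Postn at 0 in all libraries) to 2.66 to 7.47 in naïve and 1.17 to 1.64 in primed cells. The part of these few fibroblast reads and of the Tet2 level in the differences between media was not tested.

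Summed over the 16 classes, IAP reads took a larger share of repeat reads in naïve than in primed cells, and a larger share with WT than with mutant TET2. Without ribosomal RNA, the 3 libraries with WT TET2 had 12.3%, 13.3% and 9.79% in naïve and 5.61%, 6.88% and 7.34% in primed cells. With mutant TET2 they had 6.18%, 8.17% and 4.79% in naïve and 1.69%, 1.98% and 2.62% in primed cells. In both rescue lines every naïve library lay above every primed one. IAPEz-int alone took 77.4% to 86.4% of the IAP reads in the 12 libraries and IAPLTR1_Mm 6.28% to 9.52%, so the sum mainly follows these classes. Read numbers grow with the length of a class, which the files do not give, so classes are compared below only by their differences between groups.

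**Figure D1:**
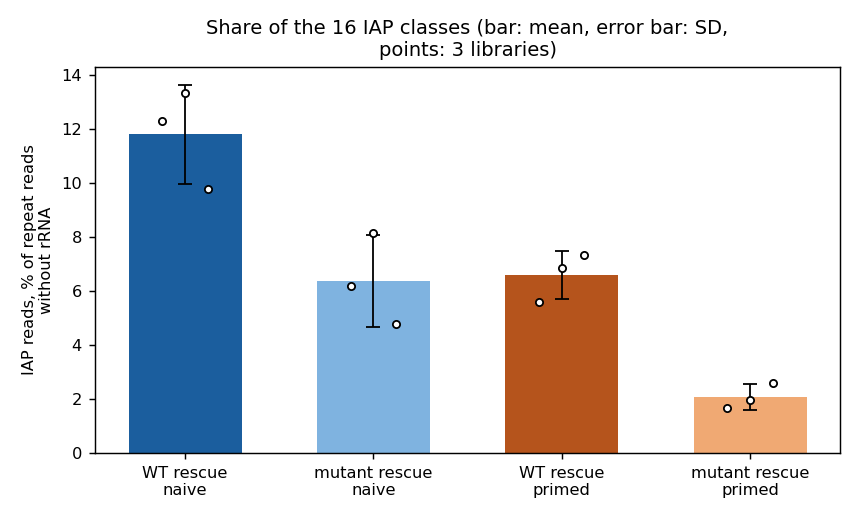
IAP reads as a percentage of repeat reads without ribosomal RNA (vertical axis) in the 4 groups. Bars are means, error bars the SD and points the 3 libraries. The naïve libraries with WT TET2 sit at 9.79% to 13.3% and the primed libraries with mutant TET2 at 1.69% to 2.62%, with the other groups between them.

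The question of whether internal regions and LTRs differ between media in the same way was asked first, in each rescue line, with limma across 939 classes, those with a mean of 1 or more above the table's lowest value. All 16 IAP classes passed this filter. To be called, a class had to differ by over 1 with a Benjamini-Hochberg adjusted p below 0.05. With WT TET2, 3 of 16 IAP classes were called higher in naïve cells, 2 of 6 internal regions (IAP-d-int and IAPEy-int) and 1 of 10 LTR subtypes (IAPEY_LTR), against 15 of 939 classes (1.6%) over all repeats. With mutant TET2, 8 were called higher, 3 of 6 internal regions (the same 2 and IAPEz-int) and 5 of 10 LTR subtypes (IAPEY_LTR, IAPLTR1_Mm, IAPLTR1a_Mm, IAPLTR2_Mm and IAPLTR2a), against 22 of 939 classes (2.34%). No IAP class was called lower in either line, and in total 7 classes were called lower with WT and 10 with mutant TET2.

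Counted by whether the 3 naïve libraries all exceeded the 3 primed ones, 10 of 16 IAP classes were separate with WT TET2, 3 internal regions and 7 LTR subtypes, against 10.6% of all classes. With mutant TET2 the count was 9 of 16, 3 internal regions and 6 LTR subtypes, against 6.92% of all classes. The median difference was 0.67 for internal regions and 0.79 for LTR subtypes with WT TET2, and 0.86 and 1.04 with mutant TET2. The median of all classes tested was 0.06 with WT and -0.04 with mutant TET2, and it moved with the scaling, to -0.12 with WT when reads were scaled to the repeat total without ribosomal RNA and to -0.15 with mutant TET2 when the size factors of the gene table were used. With those scalings, 17 classes were called higher and 17 lower with WT, and 21 higher and 16 lower with mutant TET2. The IAP classes called with WT TET2 stayed the same 3 under each scaling. With mutant TET2 the count of 8 became 9 with median-of-ratios size factors or with the repeat total, which added IAPEY2_LTR (1.11 and 1.09), and 7 with gene size factors, which lost IAPLTR2_Mm (0.98). Called and uncalled classes were thus found among both internal regions and LTRs, as the plot of naïve minus primed differences shows.

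**Figure D2:**
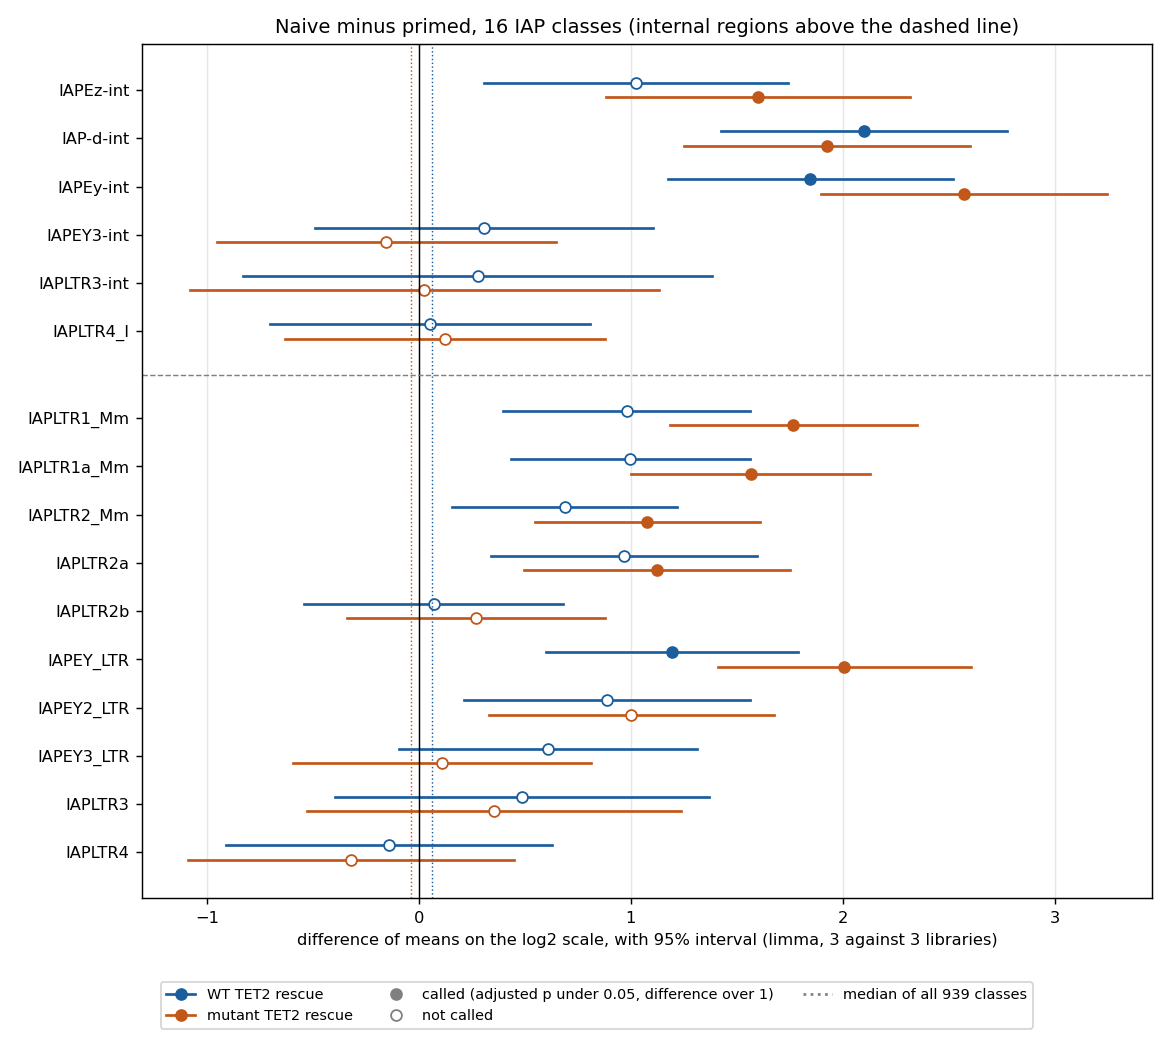
Difference between naïve and primed cells for each IAP class on the log2 scale (horizontal axis), with its 95% interval from limma, in the WT (blue) and mutant (orange) TET2 rescue lines, 3 against 3 libraries each. Internal regions are above the dashed line, filled points were called, and dotted lines give the median of all 939 classes. IAPEz-int, IAP-d-int, IAPEy-int, the LTR1 classes, IAPLTR2_Mm, IAPLTR2a and IAPEY_LTR lie to the right of 0.6, and IAPLTR2b and the LTR3 and LTR4 classes have intervals that span 0.

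IAPEz-int is the internal region of the coding IAPs, and IAPLTR1_Mm and IAPLTR2_Mm are LTR classes found at their ends. With WT TET2, IAPEz-int was 17.54, 17.46 and 17.69 in naïve and 16.15, 16.56 and 16.90 in primed cells, given in the order of the replicate numbers as all values below. With mutant TET2 it was 16.32, 16.69 and 16.12 in naïve and 14.11, 14.54 and 15.68 in primed cells. The media did not overlap in either line, and mutant cells in serum were lowest and most spread. Naïve minus primed was 1.02 ± 0.35 (SE) with WT TET2, 1.99-fold in normalised reads, which was not called (adjusted p = 0.144, limma). With mutant TET2 it was 1.60 ± 0.35, 2.75-fold, which was called (adjusted p = 0.00949, limma). The replicate numbers were taken to pair the media with WT TET2, by a rule on correlations given with the processing. A limma fit that blocked on them called this difference (adjusted p = 0.0272), but not when median-of-ratios size factors were used as well (0.93, adjusted p = 0.0685). The mutant result was lost without mutant naïve library 2, mutant primed library 1 or mutant primed library 2, with adjusted p from 0.0708 to 0.0977 and differences of 1.44, 1.26 and 1.48.

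IAPLTR1_Mm was called with mutant but not with WT TET2, like IAPEz-int. It was 14.17, 14.21 and 14.07 in naïve and 12.81, 13.20 and 13.50 in primed cells with WT TET2, and 13.07, 13.40 and 12.98 against 11.09, 11.12 and 11.94 with mutant TET2. No naïve library fell into the range of the primed ones. The difference was 0.98 ± 0.28 with WT (adjusted p = 0.0765) and 1.77 ± 0.28 with mutant TET2 (adjusted p = 0.000454, limma), a 3.31-fold change that was called under each of the 18 alternatives run. IAPLTR1a_Mm, a variant of LTR1, was 11.54, 11.89 and 11.62 in naïve and 10.40, 10.61 and 11.05 in primed cells with WT, and 10.60, 10.98 and 10.59 against 8.83, 9.11 and 9.54 with mutant TET2. Its difference was 1.00 ± 0.27 with WT (adjusted p = 0.0551) and 1.57 ± 0.27 with mutant TET2 (adjusted p = 0.00112, limma). Without the 4 libraries numbered 3, IAPEz-int, IAPLTR1_Mm and IAPLTR1a_Mm were also called with WT TET2, at 1.14, 1.19 and 1.21, which brought the count of called IAP classes there from 3 to 6.

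The LTR2 classes moved unequally. They moved less than the LTR1 classes, except that with WT TET2 IAPLTR2a (0.97) was close to IAPLTR1_Mm (0.98) and IAPLTR1a_Mm (1.00). IAPLTR2_Mm was 11.23, 11.35 and 11.28 in naïve and 10.36, 10.61 and 10.83 in primed cells with WT TET2, and 10.72, 11.02 and 10.92 against 9.66, 9.61 and 10.15 with mutant TET2. Again the media did not overlap, with a difference of 0.69 ± 0.26 with WT (adjusted p = 0.219) and 1.08 ± 0.26 with mutant TET2 (adjusted p = 0.0204, limma). IAPLTR2a was 9.50, 9.91 and 10.13 in naïve and 8.53, 8.99 and 9.11 in primed cells with WT, and 9.09, 9.32 and 9.39 against 7.87, 7.77 and 8.80 with mutant TET2. Its difference was 0.97 ± 0.30 with WT (adjusted p = 0.105) and 1.12 ± 0.30 with mutant TET2 (adjusted p = 0.0389, limma). Both mutant calls are close to the threshold, and held under 12 and 10 of 18 alternatives. Leaving out any of mutant naïve libraries 1 or 2 or mutant primed libraries 1 or 2 ended the call of IAPLTR2_Mm, at 0.98 to 1.16, and IAPLTR2a lost its call without these or mutant naïve library 3, at 0.94 to 1.21. IAPLTR2b, the third LTR2 class, spanned 8.17 to 8.74 in naïve and 8.23 to 8.68 in primed cells with WT, and 7.96 to 8.47 against 7.59 to 8.44 with mutant TET2. These ranges overlap, and its differences of 0.07 (95% interval -0.54 to 0.68) and 0.27 (-0.34 to 0.88) were not called.

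IAP-d-int, IAPEy-int and IAPEY_LTR had the 3 widest differences between media of the 16 classes in each line. IAP-d-int, an internal region class, was 10.87, 10.87 and 11.87 in naïve and 9.0, 8.84 and 9.48 in primed cells with WT TET2, and 10.63, 11.05 and 11.25 against 8.64, 8.85 and 9.66 with mutant TET2. Every naïve library exceeded every primed one of its line. The difference was 2.10 ± 0.33 with WT, 4.52-fold (adjusted p = 0.000497, limma), and 1.93 ± 0.33 with mutant TET2, 3.74-fold (adjusted p = 0.000853), called under each of the 18 alternatives in both lines.

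IAPEY elements are a branch of the IAPs known for copies on the Y chromosome. IAPEy-int was 11.73, 10.91 and 11.01 in naïve and 9.17, 9.55 and 9.4 in primed cells with WT TET2, and 10.99, 11.33 and 10.53 against 7.66, 8.54 and 8.94 with mutant TET2. IAPEY_LTR was 9.31, 8.95 and 8.70 against 7.65, 7.90 and 7.82 with WT, and 9.01, 9.29 and 8.88 against 6.78, 6.86 and 7.51 with mutant TET2. In both classes and both lines the naïve libraries were higher without overlap. IAPEy-int differed by 1.85 ± 0.33 with WT (adjusted p = 0.00179) and 2.57 ± 0.33 with mutant TET2 (adjusted p = 1.96e-05, limma), and was called under all 18 alternatives in each line. IAPEY_LTR differed by 1.19 ± 0.29 with WT (adjusted p = 0.0235) and 2.01 ± 0.29 with mutant TET2 (adjusted p = 0.000111, limma). The WT call of IAPEY_LTR was lost without WT naïve library 1 or 2 or any WT primed library, with differences of 1.03 to 1.25 and adjusted p from 0.0604 to 0.187.

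Y-linked genes were read beside these values. Summed over Ddx3y, Eif2s3y, Kdm5d and Uty, CPM ranged from 370 to 468 in naïve and 267 to 354 in primed cells with WT, and from 163 to 238 against 107 to 186 with mutant TET2. Of these 4 genes, Eif2s3y was higher in naïve cells in both lines, by 0.96 with WT (adjusted p = 0.00192, limma) and 0.83 with mutant TET2 (adjusted p = 0.00546), and the other 3 did not pass the test, with Uty at -0.08 and -0.21. Their part in the IAPEY values was not tested. The remaining members of the family moved less. IAPEY2_LTR spanned 7.90 to 8.35 in naïve and 6.87 to 7.54 in primed cells with WT, and 7.49 to 7.92 against 6.37 to 7.44 with mutant TET2. Its difference was 0.89 with WT (adjusted p = 0.206) and 1.00 with mutant TET2 (adjusted p = 0.121, limma). With mutant TET2 it was called under 6 of 18 alternatives, among them without the 4 libraries numbered 3 (1.27, adjusted p = 0.000536, limma), where the count of called IAP classes was 9, and without mutant primed library 3 alone (1.36, adjusted p = 0.00559).

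IAPEY3_LTR was 6.73, 6.83 and 7.24 in naïve and 6.22, 6.25 and 6.51 in primed cells with WT TET2, and 6.72, 6.17 and 7.48 against 6.53, 6.36 and 7.16 with mutant TET2. The media were separate with WT (0.61, adjusted p = 0.617) and overlapped with mutant TET2 (0.11, adjusted p = 0.995, limma). IAPEY3-int was 9.15, 9.22 and 10.35 against 9.03, 9.13 and 9.63 with WT, and 8.77, 9.10 and 9.74 against 8.51, 9.37 and 10.21 with mutant TET2. The overlapping values gave 0.31 (95% interval -0.49 to 1.11) and -0.15 (-0.95 to 0.64). In all 4 groups library 3 was the highest for both EY3 classes, as it was for the median of all classes. With that median subtracted in each library, library 3 stayed the highest for IAPEY3-int in every group. For IAPEY3_LTR it stayed so only in naïve cells with mutant TET2 (0.71, 0.28 and 0.99). The other groups had 0.60, 0.85 and 0.65 (WT naïve), 0.11, 0.29 and 0.11 (WT primed) and 0.70, 0.33 and 0.54 (mutant primed). The part of library 3 in the values was not tested.

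The LTR3 and LTR4 classes did not differ between media beyond their spread. IAPLTR3 had 11 to 70 reads per library and IAPLTR4_I 14 to 69, so counting error is larger for them than for abundant classes, and its part in their spread was not tested. IAPLTR3-int had more reads, 62 to 552 per library, and yet the widest group SD of the IAP classes (1.21, WT naïve). IAPLTR3-int was 7.11, 7.71 and 9.44 in naïve and 7.52, 7.50 and 8.41 in primed cells with WT TET2, and 6.64, 7.48 and 8.36 against 6.39, 7.42 and 8.60 with mutant TET2. IAPLTR3 was 4.64, 5.60 and 6.64 against 5.12, 4.73 and 5.57 with WT, and 4.58, 5.44 and 5.74 against 4.52, 4.80 and 5.38 with mutant TET2. Library 3 was the highest in every group for both classes. With the median of all classes subtracted, it stayed the highest in every group for IAPLTR3-int, but for IAPLTR3 only with WT TET2. Their differences were 0.28 and 0.49 with WT, and 0.02 and 0.35 with mutant TET2, and the intervals reached from -1.08 to 1.38 for IAPLTR3-int over both lines.

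IAPLTR4 was 6.07, 6.26 and 6.95 in naïve and 6.62, 6.16 and 6.92 in primed cells with WT, and 5.60, 5.76 and 6.84 against 5.83, 6.55 and 6.77 with mutant TET2. IAPLTR4_I was 4.86, 5.24 and 6.0 against 5.17, 5.08 and 5.70 with WT, and 4.58, 4.82 and 5.81 against 4.86, 4.80 and 5.17 with mutant TET2. All of these ranges overlap between media. IAPLTR4 was the class with the lowest naïve minus primed value in both lines, -0.14 (95% interval -0.91 to 0.63) and -0.32 (-1.09 to 0.45), and IAPLTR4_I differed by 0.05 and 0.12.

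**Figure D3:**
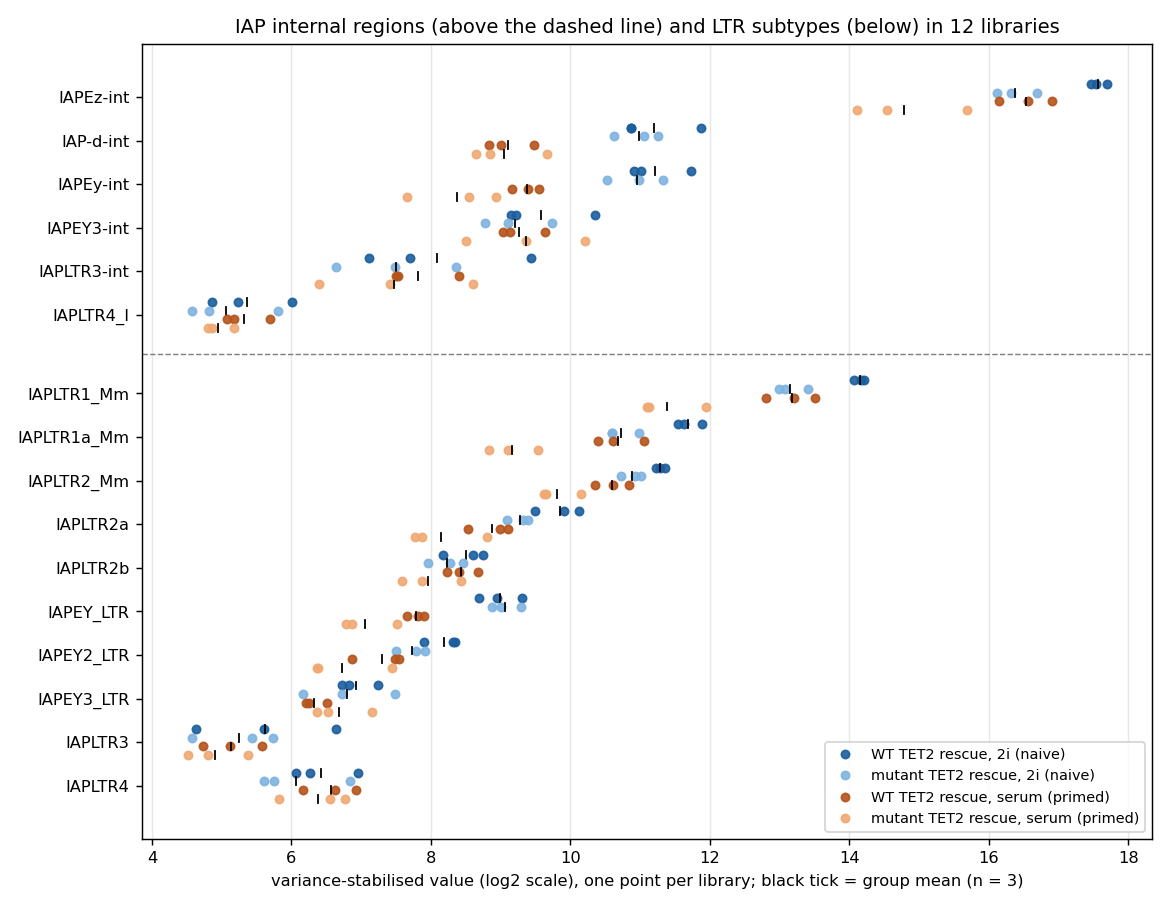
Variance-stabilised values on the log2 scale (horizontal axis) of the 16 IAP classes in each of the 12 libraries (points, coloured by group), with group means as black ticks (n = 3). Internal regions are above the dashed line. For IAP-d-int, IAPEy-int and IAPEY_LTR the naïve groups (blue) stand apart from the primed ones (orange), whereas for the LTR3 and LTR4 classes the 4 groups overlap.

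Whether an internal region and its LTR moved by unequal amounts was then asked within libraries. There depth and scaling cancel at high counts, but only in part for classes with few reads, such as IAPLTR3 and IAPLTR4_I. For 6 pairs that share a name stem or, for IAPEz-int, an element, the LTR value was subtracted from the internal value in each library, and medium labels were permuted within each rescue line (exact, two-sided, 400 arrangements, smallest possible p 0.005). IAPEz-int minus IAPLTR1_Mm did not change beyond its spread, with means of 3.41 ± 0.19 (SD, n = 3) in naïve and 3.37 ± 0.03 in primed cells with WT, and 3.22 ± 0.08 against 3.39 ± 0.36 with mutant TET2. The mean naïve minus primed effect on this pair was -0.06 (p = 0.635, exact permutation).

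IAPEz-int minus IAPLTR2_Mm was 6.27 ± 0.15 in naïve and 5.94 ± 0.14 in primed cells with WT, and 5.49 ± 0.26 against 4.97 ± 0.54 with mutant TET2. The effect was 0.43 (p = 0.030, exact permutation), but adjusted over the 6 pairs p was 0.0900, and with mutant TET2 the libraries overlapped. IAPEy-int minus IAPEY_LTR was 2.23 ± 0.24 against 1.58 ± 0.07 with WT, and 1.89 ± 0.21 against 1.33 ± 0.41 with mutant TET2. The internal region thus exceeded its LTR by 0.61 more in naïve cells (p = 0.010, exact permutation), again short of the threshold after adjustment over the 6 pairs (0.0600). The other pairs had effects of -0.28 for IAPEY3-int and IAPEY3_LTR (p = 0.250, exact permutation), -0.27 for IAPLTR3-int and IAPLTR3 (p = 0.295) and 0.32 for IAPLTR4_I and IAPLTR4 (p = 0.055). No pair was therefore called after adjustment, and the direction differed among pairs, as the plot of internal minus LTR values by library shows.

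**Figure D4:**
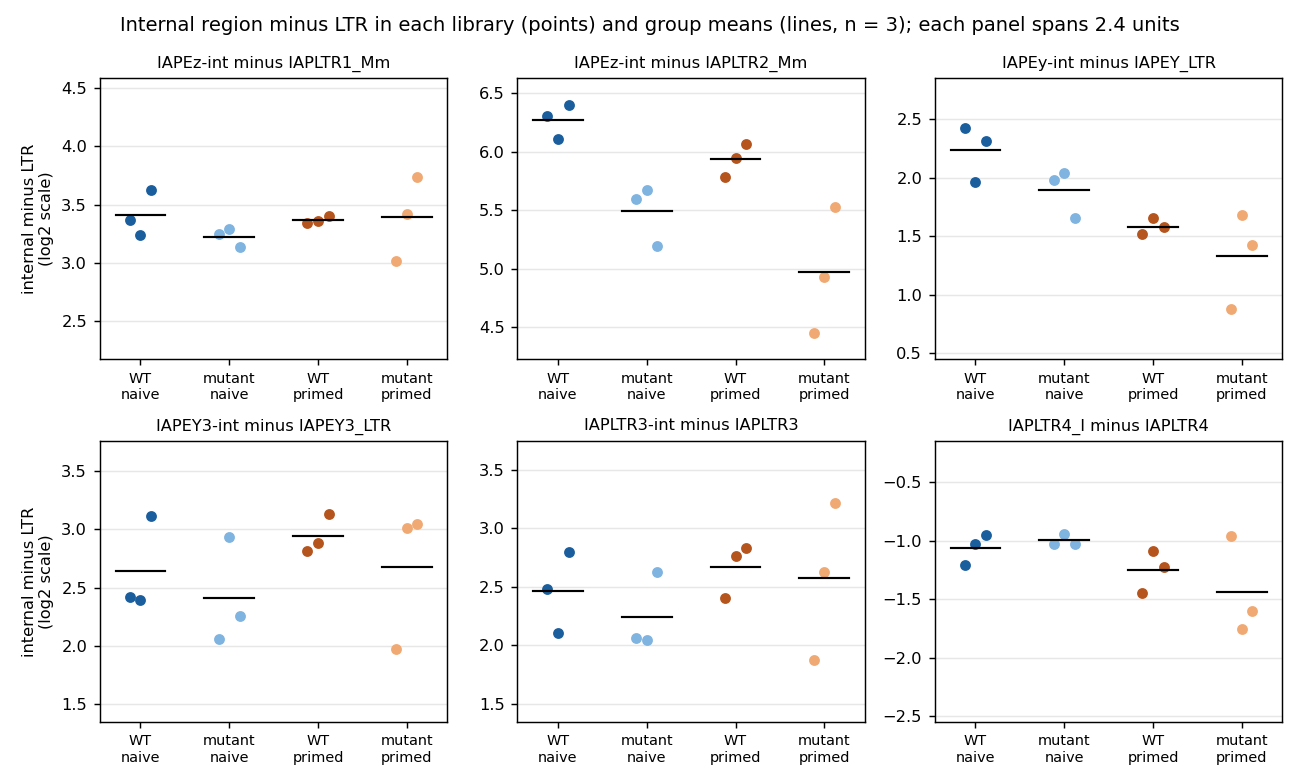
Internal region minus LTR on the log2 scale (vertical axis) in each library (points) of the 4 groups, with group means as lines (n = 3), for 6 pairs. Every panel spans the same range. The IAPEz-int and IAPLTR1_Mm means lie within 3.22 to 3.41 in all groups, the IAPEy-int and IAPEY_LTR means are higher in naïve cells (2.23 and 1.89) than in primed cells (1.58 and 1.33), and the spread is widest in the primed libraries with mutant TET2.

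LTR subtypes also moved apart from each other. These pairs were chosen after the values were seen and are given without a test. IAPLTR1_Mm minus IAPLTR2_Mm was 2.94, 2.86 and 2.78 in naïve and 2.45, 2.59 and 2.67 in primed cells with WT TET2, and 2.35, 2.38 and 2.06 against 1.43, 1.51 and 1.79 with mutant TET2. IAPLTR1_Mm minus IAPLTR2b was 6.0, 5.61 and 5.32 against 4.57, 4.80 and 4.82 with WT, and 5.12, 5.13 and 4.52 against 3.5, 3.25 and 3.51 with mutant TET2. In each line LTR1 thus rose above LTR2 and LTR2b in naïve cells without overlap, by 0.49 and 1.205 on average over the lines. Among internal regions, IAPEy-int minus IAPEz-int was -5.80, -6.54 and -6.67 in naïve and -6.98, -7.01 and -7.51 in primed cells with WT, and -5.33, -5.36 and -5.59 against -6.45, -6.00 and -6.75 with mutant TET2, a mean rise of 0.90 in naïve cells. IAP-d-int minus IAPEz-int was -6.67, -6.59 and -5.81 against -7.15, -7.72 and -7.42 with WT, without overlap. With mutant TET2 it was -5.69, -5.64 and -4.87 against -5.47, -5.69 and -6.02, which overlap. Its rises in naïve cells were 1.08 with WT and 0.33 with mutant TET2.

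The 4 groups also allow WT and mutant TET2 to be compared within each medium. In naïve cells no IAP class and no other class was called (0%), although 17 of 939 classes, 3 of them IAPs, had an unadjusted p under 0.05, and limma-voom on the recovered reads gave 0 calls as well. In primed cells 3 of 16 IAP classes were called higher with WT TET2 (IAPEz-int, IAPLTR1_Mm and IAPLTR1a_Mm), and they were the only 3 classes called of 939 (0.319%). Without overlap, WT exceeded mutant TET2 in 5 IAP classes in naïve cells, 1 internal region and 4 LTR subtypes, against 3.19% of all classes. In primed cells it did so in 6, 2 internal regions and 4 LTR subtypes, against 1.92%.

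IAPEz-int and LTR1 differed most between the rescue lines. From the values above, WT exceeded mutant TET2 for IAPEz-int by 1.18 ± 0.35 in naïve (adjusted p = 0.773) and by 1.76 ± 0.35 in primed cells (adjusted p = 0.0133, limma), 2.25-fold and 3.10-fold in normalised reads. In naïve cells the replicate numbers were taken to pair the lines by the same rule, and the limma fit that blocked on them called IAPEz-int and no other class (adjusted p = 0.00654). In that fit IAPLTR1_Mm and IAPLTR1a_Mm had a lower adjusted p (0.00198 each, limma) and missed only the limit of 1 on the difference, so the fit does not set them apart from IAPEz-int. IAPLTR1_Mm was higher by 1.00 ± 0.28 in naïve (adjusted p = 0.773) and 1.78 ± 0.28 in primed cells (adjusted p = 0.00197, limma), called in primed cells under each of 18 alternatives, and IAPLTR1a_Mm by 0.96 ± 0.27 (adjusted p = 0.773) and 1.53 ± 0.27 (adjusted p = 0.00543). The primed call of IAPEz-int was lost without WT primed library 2 or 3 or mutant primed library 1 or 2, with differences of 1.42 to 1.75. That of IAPLTR1a_Mm was lost without WT primed library 3 or mutant primed library 1 or 2, at 1.34, 1.36 and 1.5.

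The other IAP classes differed less between the lines. IAPLTR2_Mm was 0.40 higher with WT TET2 in naïve and 0.79 in primed cells (adjusted p = 0.886, limma), IAPLTR2a 0.57 and 0.73, and IAPLTR2b 0.27 and 0.47. IAPEy-int was 0.27 higher in naïve and 0.99 ± 0.33 in primed cells (adjusted p = 0.886), where the lines did not overlap, and without the 4 libraries numbered 3 limma called it at 1.26 (adjusted p = 0.00379). IAPEY_LTR differed by -0.07 and 0.74, and IAP-d-int by 0.23 and 0.06. The remaining 7 classes had differences between -0.36 and 0.59 over both media, and none was called. Within libraries, IAPEz-int minus IAPLTR2_Mm was higher with WT than with mutant TET2 without overlap in both media, by 0.78 in naïve and 0.97 in primed cells, whereas IAPEz-int minus IAPLTR1_Mm overlapped, with 0.19 and -0.03; no test between lines was set for these pairs, and the values are given as a description.

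Measured facts that differ along with the lines stand beside these values. Tet2 transcripts were higher in the WT line in both media, as given above, and the Y-linked sum was above the mutant range in each medium (370 to 468 against 163 to 238 in naïve and 267 to 354 against 107 to 186 in primed cells). Ddx3y was higher with WT TET2 by 1.35 in naïve (adjusted p = 0.044) and 1.55 in primed cells (adjusted p = 0.00885, limma), and Kdm5d by 1.42 in primed cells (adjusted p = 0.0124). These are transcript values. For the protein, the study reported a Western blot with similar amounts of WT and mutant TET2 in the rescue lines, without naming the medium. The part of the Tet2 level and of the lines' other differences in the IAP values was not tested.

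**Figure D5:**
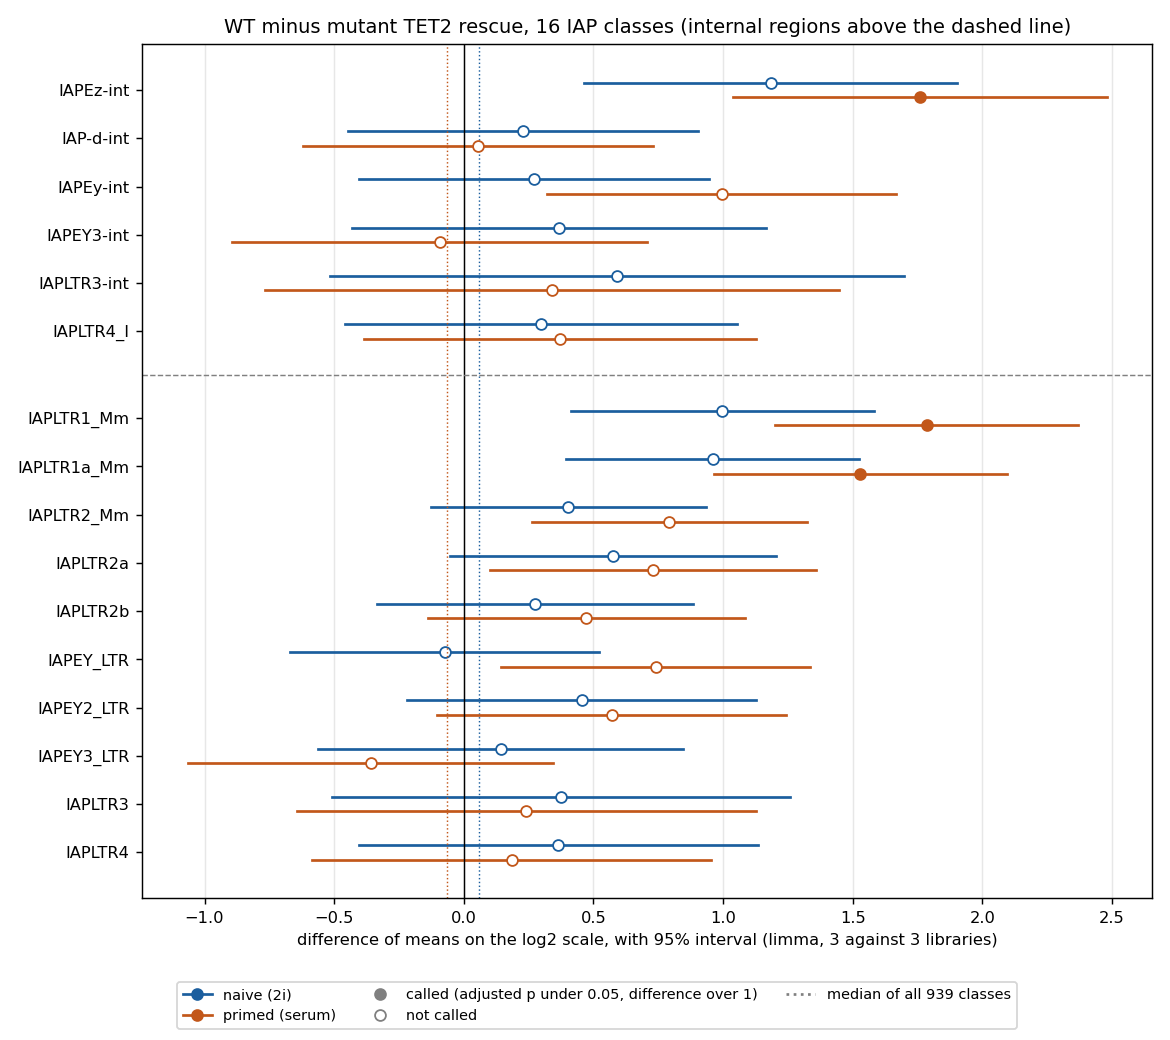
WT minus mutant TET2 rescue line for each IAP class on the log2 scale (horizontal axis), with its 95% interval from limma, in naïve (blue) and primed (orange) cells, 3 against 3 libraries each. Internal regions are above the dashed line, filled points were called, and dotted lines give the median of all 939 classes. IAPEz-int, IAPLTR1_Mm and IAPLTR1a_Mm are the called classes, in primed cells, and IAP-d-int lies near 0 in both media.

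The naïve minus primed difference was smaller with WT than with mutant TET2 for several classes, but this was not called for any. The difference of the differences was -0.58 for IAPEz-int (95% interval -1.59 to 0.44), -0.79 for IAPLTR1_Mm (-1.61 to 0.04) and -0.81 for IAPEY_LTR (-1.66 to 0.03). It was 0.17 for IAP-d-int (-0.78 to 1.13). In this test 0% of the 939 classes were called by limma, 4 classes and no IAP class had an unadjusted p under 0.05, and limma-voom also gave 0 calls. All 4 intervals include 0, those of the first 3 classes also include -1, and that of IAP-d-int includes 1.

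Related endogenous retroviruses and LINE-1 elements are given for scale. ETn and MusD classes (5) belong to another endogenous retrovirus family silenced by the same pathway. They had a median naïve minus primed difference of 0.02 with WT and -0.26 with mutant TET2, and none was called. Of the MMERVK10C and RLTR10 classes (9), 2 were called higher with WT and 1 with mutant TET2, with medians of 0.36 and 0.34. The L1Md classes (6), promoters and bodies of young LINE-1 elements, had medians of -0.53 and -0.76, and none was called. The IAP medians of 0.79 and 1.04 lay above these, but single members did not all keep that order. In the WT line the top MMERVK10C or RLTR10 member was 2.24 higher in naïve cells, the largest value of all 939. The top IAP there, IAP-d-int, reached 2.10. In the mutant line that group reached 2.25, below the 2.57 of IAPEy-int. Its naïve libraries were higher without overlap for 4 of 9 members in each line, against 10 and 9 of the 16 IAPs. The difference between the groups of classes was not tested.

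Genes of the pathways that act on IAP silencing were read in the same libraries, from 3 lists with 32 genes in the table. The lists hold silencing factors and also genes that oppose them, namely Tet1, Tet2, Tet3, Tdg and Jmjd6, so a count over them is not a count of silencers. With an adjusted p below 0.05, 2 were higher and 10 lower in naïve cells with WT, and 2 were higher and 13 lower with mutant TET2. Their median difference was -0.28 with WT and -0.35 with mutant TET2, against 0.01 and -0.01 over all genes tested. Of all 14185 genes, 18.6% were higher and 17.3% lower with WT, and 18.3% and 16.9% with mutant TET2. Among the 19 genes of H3K9 methylation and KAP1 repression, 1 rose and 5 fell with WT, and 1 rose and 6 fell with mutant TET2. Trim28, which encodes KAP1, fell by 0.94 with WT (adjusted p = 0.000974) and by 1.08 with mutant TET2 (adjusted p = 0.000341, limma). Daxx, a chaperone of histone H3.3, fell by 0.70 and 0.63, and Ehmt1, an H3K9 methyltransferase, by 0.57 and 0.48. The chromatin assembly factor subunits moved apart, since Chaf1a fell by 0.76 and 0.57 while Chaf1b rose by 0.88 and 0.75. Setdb1 was not among the called genes.

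Of the 9 genes of DNA methylation and its removal, 4 fell with WT and 5 with mutant TET2, and none rose. These include Tet2, whose reads come partly from the vector, and with mutant TET2 also Tdg (-0.45), a glycosylase that removes oxidised cytosine. Dnmt3l, the cofactor of the de novo methyltransferases, fell by 5.18 with WT (adjusted p = 6.12e-10) and by 5.17 with mutant TET2 (adjusted p = 8.62e-10, limma). Dnmt3b fell by 2.21 and 2.45, and Dnmt3a fell by 0.91 and dropped by 1.3, while the maintenance methyltransferase Dnmt1 differed by 0.03 and 0.29 and its partner Uhrf1 by 0.09 and 0.23, which were not called. Among the 4 genes of H4R3 methylation, 1 rose and 1 fell with WT, and 1 rose and 2 fell with mutant TET2. The methyltransferase gene Prmt7 rose by 0.62 and 0.55, and Jmjd6, a putative demethylase, fell by 0.72 and 0.77. Wdr77, a partner of PRMT5, differed by -0.16 with WT and was called with mutant TET2 (-0.65, adjusted p = 0.00464, limma), and Prmt5 differed by -0.22 and -0.37 and was not called. Between the rescue lines, Tet2 was the 1 gene of these 32 that was called, in either medium. How these genes bear on the IAP values was not tested.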

How the data were processed

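Poly(A) RNA was sequenced in 12 libraries, 3 in each of 4 groups set by medium and rescue line as the labels give them. The authors trimmed single-end reads with Trim Galore 0.3.3, aligned them to mm9 with TopHat2 2.0.9, which placed a read with several equal matches at 1 of them at random, counted reads for each gene and each RepeatMasker class with all copies pooled, and transformed the counts with DESeq2. The deposited values are these variance-stabilised values on the log2 scale, for 26061 genes and 1217 repeat classes. Because library preparation was not stranded, sense and antisense transcripts are summed, and reads of an IAP copy inside a gene cannot be told apart from that gene's own. The authors' transformation was inverted here, which returned whole reads for 100% of values (tolerance 0.02). Library size factors and all counts of reads come from this step. In the libraries numbered 3 these factors were 0.788 (WT naïve), 1.50 (mutant naïve), 1.68 (WT primed) and 0.742 (mutant primed). Median-of-ratios factors from the recovered reads were higher there, at 1.14, 1.97, 2.03 and 1.14. In the other libraries they were lower, except in WT naïve library 1 (0.760 against 0.746).

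Groups were compared with limma 3.58.1 (R 4.3.3) with a variance trend, on the values of all 12 libraries and over all 939 classes or 14185 genes with a mean at least 1 over the lowest value. P-values were adjusted by the Benjamini-Hochberg method over all features tested, and genes were called on the adjusted p alone. The limma step was tested on simulated data. Internal minus LTR values were tested by exact permutation (Python 3.11.15, numpy 2.4.6, pandas 2.3.3, scipy 1.17.1). Primers were matched to the mm9 sequence by exact search. Figures were drawn with matplotlib 3.10.9. The classes to describe were all those with a name starting with IAP. They, the gene lists and the pairs were chosen with earlier results of these data known. Genes named are those of the lists.

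Replicate numbers were taken to pair 2 groups where the deviations of all 3 same-numbered libraries from their group means correlated above 0.1 over classes. They did so for the media with WT TET2 (0.135, 0.158 and 0.300, although over genes 1 of these pairs was at -0.0162). They also did so for the lines in naïve cells (0.417, 0.289 and 0.485). The rule was not met for the media with mutant TET2 (0.1985, 0.0535 and 0.1951) or the lines in primed cells (lowest -0.0185). Missing the rule does not show that the libraries are unpaired. Each blocked fit used all 12 libraries, so its estimate of the spread also rests on blocks in groups not taken as paired. The alternatives were other filters, scalings and variance models, limma-voom on the recovered reads, the replicate block, the 6 compared libraries alone and each library left out. The block with other size factors, and leaving out the 4 libraries numbered 3, were added after the data were seen. The number of libraries limits precision for abundant classes, and counting error limits those with few reads.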

Additional observations from a re-analysis of the deposited data

How the results depend on the processing

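Over 63 results and 1100 alternative values, 992 kept their direction and their side of the threshold or, for counts, stayed within 1.5 times. The threshold was the call for classes and an unadjusted exact p below 0.05 for internal minus LTR pairs. On this basis 38 no longer met the threshold, 18 newly met it, 41 changed sign and 11 were counts that moved by over 1.5 times. Where no cause is named, the cause was not tested. IAP-d-int and IAPEy-int in both media comparisons, and IAPEY_LTR, IAPLTR1_Mm and IAPLTR1a_Mm with mutant TET2, were called under each of 18 alternatives.

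With the replicate block, where the media with WT TET2 and the lines in naïve cells were taken as paired, IAPEz-int was called at 1.02 and 1.18. With median-of-ratios size factors as well, the call between lines held (1.14) and that between media with WT TET2 was lost (0.93, adjusted p = 0.0685, limma). In naïve cells the count of called IAP classes between the lines rose from 0 to 1 with the block. Where the numbers were not taken to pair the libraries, the block gained IAPEY2_LTR between media with mutant TET2 (1.00). With median-of-ratios size factors as well, it gained IAPEy-int between lines in primed cells (1.09). The block alone changed no other call of an IAP class. It called 11 genes of the silencing lists with WT TET2, against 12 without it, and 14 against 15 with mutant TET2. Sign flips of the 6 same-numbered pairs gave 0.43 for IAPEz-int minus IAPLTR2_Mm with p = 0.0938 (exact). The 6 compared libraries alone called IAPEz-int with WT TET2 (1.02), and so did leaving out the 4 libraries numbered 3 (1.14), which raised the count of called IAP classes there from 3 to 6 and that with mutant TET2 from 8 to 9. Without a filter 1217 classes were tested, and the variance trend was fitted over all of them. IAPEz-int was then not called with mutant TET2 (1.60, adjusted p = 0.0805, limma) or between lines in primed cells (1.76, adjusted p = 0.252). The parts of the added tests and of the changed trend were not told apart. With a difference over 1 required, 3 genes of the silencing lists were called with WT and 5 with mutant TET2.

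Differences near 0 changed sign. With WT TET2, IAPLTR2b between media was -0.021 when centred on the median class, -0.017 with median-of-ratios size factors (with or without the block), -0.12 when scaled to the repeat total without ribosomal RNA and -0.093 with gene size factors. IAPLTR4_I was -0.041, -0.038, -0.13 and -0.11 under the same settings, -0.011 with limma-voom and -0.079 without the libraries numbered 3, where IAPLTR3-int was -0.10. With mutant TET2, IAPLTR3-int was -0.072 with gene size factors, and without the libraries numbered 3 IAPEY3-int was 0.0022 and IAPLTR4_I -0.13.

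Leaving out each library in turn gave, with WT TET2, ranges of -0.080 to 0.52 for IAPEY3-int, -0.049 to 0.24 for IAPLTR2b, -0.023 to 0.98 for IAPLTR3, -0.40 to 0.76 for IAPLTR3-int, -0.40 to 0.039 for IAPLTR4 and -0.27 to 0.30 for IAPLTR4_I, each lowest without naïve library 3 and highest without naïve library 1. With mutant TET2 the ranges were -0.24 to 0.42 for IAPEY3_LTR, -0.58 to 0.27 for IAPEY3-int, -0.51 to 0.59 for IAPLTR3-int, -0.25 to 0.37 for IAPLTR4_I and 1.26 to 2.05 for IAPEz-int. Between lines they were -0.24 to 0.071 for IAPEY_LTR and -0.11 to 0.40 for IAP-d-int in naïve cells, and 1.42 to 2.21 for IAPEz-int and -0.15 to 0.36 for IAP-d-int in primed cells. Among pairs they were -0.16 to 0.025 for IAPEz-int minus IAPLTR1_Mm, 0.30 to 0.57 for IAPEz-int minus IAPLTR2_Mm and 0.24 to 0.44 for IAPLTR4_I minus IAPLTR4. IAP classes called ranged from 5 to 9 between media with mutant TET2, with 5 without naïve library 2 or primed library 1 or 2, and from 1 to 3 between lines in primed cells, with 1 without WT library 3 or mutant library 1 or 2.

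Counts over all classes moved more. Between media with WT TET2, 15 classes were called higher and 7 lower, against 25 and 16 with median-of-ratios size factors, 28 and 13 with the replicate block, and 31 and 20 without the libraries numbered 3. With mutant TET2 they were 22 and 10, against 32 and 16, 26 and 17, and 42 and 16.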
